A study of Mus musculus with 6 samples.

Results

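The cell cycle and replication genes examined here were 43 named mouse genes, chosen as a fixed list of symbols out of 21887 protein-coding genes. All 43 were found in the RefSeq gene table of the mm10 build and all are accounted for below. A gene was taken to have a peak if the summit of one lay within 1, 10 or 50 kb of either annotated end of the gene. They comprise 8 cyclins, 4 cyclin-dependent kinases, 5 kinase inhibitors, 6 Mcm helicase subunits, 7 E2f factors, 3 pocket proteins, 3 licensing and clamp genes and 7 genes of mitosis and proliferation.

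The peaks came from chromatin immunoprecipitation followed by sequencing (ChIP-seq) of E13.5 molar tooth germs and limbs of the same embryonic age, harvested from wild-type mice of the CD1 strain. In each tissue 1 library was made with an antibody to pSmad1/5 and 1 with an antibody to Smad4. All groups shared the same genotype, strain and stage, and how many embryos each library pooled is not given in the sources used. The lists hold positions and scores of peaks and no expression values, so the labelled tissues were not checked against marker genes. The labels name no sorted cell type, and a site bound in few cells cannot be told apart from one bound weakly in many.

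Cells of a growing tooth germ or limb bud divide under the control of cyclins, which activate cyclin-dependent kinases, and of inhibitor proteins that hold these kinases back. The kinases phosphorylate the pocket proteins, which then release E2f factors, and E2f factors turn on genes for DNA replication such as the Mcm helicase. Bone morphogenetic protein (BMP) signalling acts through phosphorylated Smad1 and Smad5 with their partner Smad4, and it is known to promote or restrain proliferation depending on the tissue.

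Peaks of a library overlapped the immediate promoter of 4 of the members with a promoter window. Their sequences show where antibody enrichment and the annotated start of a cell cycle gene meet. Each window runs from 250 bases before to 50 bases after an annotated start, 5′ to 3′ on the strand of the gene, and comes from RefSeq on GRCm38.p6. RefSeq windows were found for 33 of the 43 genes, and capitals mark the bases that lie under the peak. Genes without a window could not be searched for promoter overlap, though some had summits very near an end. They include Ccnd1 (11 bp), Ccnd2 (15 bp), E2f4 (27 bp), Ccna2 (82 bp), Ccne2 (111 bp) and E2f5 (129 bp).
Cdkn1b promoter, molar pSmad1/5 peak: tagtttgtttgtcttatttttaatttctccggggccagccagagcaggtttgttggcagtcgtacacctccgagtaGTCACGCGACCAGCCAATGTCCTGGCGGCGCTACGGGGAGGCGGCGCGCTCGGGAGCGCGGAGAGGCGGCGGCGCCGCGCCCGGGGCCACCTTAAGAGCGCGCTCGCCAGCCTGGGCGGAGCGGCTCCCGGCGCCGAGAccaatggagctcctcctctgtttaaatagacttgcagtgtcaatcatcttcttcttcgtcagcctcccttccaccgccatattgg
Mcm7 promoter, molar pSmad1/5 peak: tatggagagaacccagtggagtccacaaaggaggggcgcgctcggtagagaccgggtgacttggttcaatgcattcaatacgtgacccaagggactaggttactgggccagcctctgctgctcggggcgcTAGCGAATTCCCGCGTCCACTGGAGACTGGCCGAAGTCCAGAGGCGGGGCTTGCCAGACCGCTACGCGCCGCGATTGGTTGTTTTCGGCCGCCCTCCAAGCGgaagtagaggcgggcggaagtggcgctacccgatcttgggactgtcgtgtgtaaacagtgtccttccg
Cdkn2a promoter, limb Smad4 peak: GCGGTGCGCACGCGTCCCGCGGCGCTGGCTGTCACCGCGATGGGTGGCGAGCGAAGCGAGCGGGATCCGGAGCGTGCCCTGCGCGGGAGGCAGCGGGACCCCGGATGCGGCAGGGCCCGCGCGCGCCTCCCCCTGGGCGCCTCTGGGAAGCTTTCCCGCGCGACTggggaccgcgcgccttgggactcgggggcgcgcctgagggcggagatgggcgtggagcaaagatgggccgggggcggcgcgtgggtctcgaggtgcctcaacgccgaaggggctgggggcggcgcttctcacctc
E2f3 second start, limb Smad4 peak: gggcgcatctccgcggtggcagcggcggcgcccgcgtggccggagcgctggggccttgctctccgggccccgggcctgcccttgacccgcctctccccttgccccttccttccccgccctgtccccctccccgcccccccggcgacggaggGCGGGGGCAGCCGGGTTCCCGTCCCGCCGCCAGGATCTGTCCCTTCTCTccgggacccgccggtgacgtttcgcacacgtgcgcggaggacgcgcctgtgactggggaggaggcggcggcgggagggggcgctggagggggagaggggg

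The Cdkn1b window lies on the plus strand at chr6:134920151-134920450. Its molar pSmad1/5 peak, at 134920227 to 134920365, had its summit 81 bases before the start and a score of 2.59. The score is the enrichment value that the authors' peak caller gave each peak. Under that peak the letters GGCGCC, a GC-rich element that Smad1 and Smad5 are known to bind, occurred at offsets -104 to -99 and -45 to -40, and GGCTCC, the reverse complement of the related GGAGCC, at -52 to -47. The Mcm7 window lies on the minus strand at chr5:138171217-138171516. Its molar pSmad1/5 peak had its summit 76 bases before the start and a score of 3.27, and it covered CAGAC, the short Smad element, at -66 to -62. The same stretch held TTCCCGC, an E2f element, at -113 to -107. The start of this window is not the outermost annotated end of Mcm7, from which the summit lay 769 bp, and the same summit lay nearer to an end of Ap4m1, at 679 bp.

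The Cdkn2a window lies on the minus strand at chr4:89294570-89294869, at the outermost annotated start of the gene. A limb Smad4 peak of 215 bp and a score of 3.18 covered 165 of its bases, with the summit 293 bases before the start, and the covered part held GGCGCC at -115 to -110 and TTCCCGC at -98 to -92. The E2f3 window belongs to a start inside the annotated gene, on the minus strand at chr13:29984342-29984641. Its limb Smad4 peak had a score of 3.59 and its summit 98 bases before that start. None of the motifs searched lay under it, and GGCGCC lay outside it at -224 to -219. Of the 39 promoter windows of members, these 4 were overlapped by a peak of any list, a share of 10.3%, against 13.4% of all 32851 windows. No score of these 4 peaks reached 4.

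With 1 library per tissue and antibody there is no replicate, so no difference between tissues or antibodies was tested. Ranges after a share are exact binomial 95% intervals (Clopper-Pearson) and cover only the counting of genes. They treat genes as independent, although some members share peaks, and they are not a test against all genes. All genes were not matched to members by expression or promoter type. The molar lists are uneven between chromosomes. On chromosomes 1, 3, 6, 12, 13, 14 and 16 the molar pSmad1/5 list goes down to scores of 2, whereas the limb list stops at 3. On chromosomes 2, 5, 8, 9, 11 and 19 the molar Smad4 list stops at 4 and the limb list at 3. Of the members, 11 lie on the first set of chromosomes and 15 on the second. Input libraries of each tissue hold no peak list here. Read depth is unknown, and a missing peak means only that none was listed.

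All 43 members had a peak of at least 1 list within 50 kb, against 88.4% of all genes, and limb Smad4 peaks lay near the largest number of them. Within 50 kb, molar pSmad1/5 peaks lay near 36 of 43 members, a share of 83.7% (69.3 to 93.2%), against 74.4% of all protein-coding genes. Limb pSmad1/5 peaks lay near 35, or 81.4% (66.6 to 91.6%), against 67.3%. Molar Smad4 peaks lay near 33, or 76.7% (61.4 to 88.2%), against 67.3%. Limb Smad4 peaks lay near 40, or 93.0% (80.9 to 98.5%), against 70.5%. The interval of the limb Smad4 share lies above the share of all genes, while the intervals of the other lists include theirs.

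Closer to the genes, limb Smad4 again marked the most members. Within 10 kb, 24 members had a molar pSmad1/5 peak (55.8%, 39.9 to 70.9%, all genes 48.1%) and 20 a limb pSmad1/5 peak (46.5%, 31.2 to 62.3%, all genes 41.9%). Molar Smad4 peaks lay there at 20 members (46.5%, 31.2 to 62.3%, all genes 36.9%) and limb Smad4 peaks at 32 (74.4%, 58.8 to 86.5%, all genes 47.6%). Within 1 kb, molar pSmad1/5 peaks lay at 11 members (25.6%) and limb pSmad1/5 peaks at 10 (23.3%, 11.8 to 38.6%), against 20.7% and 15.5% of all genes. Molar Smad4 peaks lay within 1 kb of 9 members (20.9%, 10 to 36%, all genes 7.76%) and limb Smad4 peaks of 18 (41.9%, 27.0 to 57.9%, all genes 21.8%). For both Smad4 lists the interval within 1 kb lay above the share of all genes.

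The margin of limb Smad4 over all genes was lost when the score was raised, and was partly kept when the lists were evened out. Counting only scores of 4 or more, molar pSmad1/5 marked 17 members within 50 kb (39.5%, all genes 27.1%) and limb pSmad1/5 marked 22 (51.2%, all genes 33.7%). Molar Smad4 peaks of that score lay near 20 (46.5%, all genes 37.5%) and limb Smad4 peaks near 18 (41.9%, all genes 42.9%), so the limb Smad4 share was then close to the background. Within 1 kb the counts at that score were 4 for molar pSmad1/5 (9.3%, all genes 4.37%) and 3 for limb pSmad1/5 (6.98%, all genes 5.57%). For Smad4 they were 4 in molar (9.3%, 2.59 to 22.1%, all genes 2.26%) and 5 in limb (11.6%, 3.89 to 25.1%, all genes 9.73%). Within 10 kb, limb Smad4 peaks of that score lay at 7 members (16.3%, 6.81 to 30.7%), against 22.8% of all genes. With equal numbers of the top-scoring peaks of both tissues on each chromosome, 35 members (81.4%, all genes 66.9%) had a molar and 33 (76.7%, all genes 64.6%) a limb pSmad1/5 peak within 50 kb. For Smad4 these were 29 in molar (67.4%, all genes 60.5%) and 33 in limb (76.7%, 61.4 to 88.2%, all genes 61.4%). Within 1 kb the evened lists gave 9 members for molar pSmad1/5 (20.9%, all genes 16%) and 9 for limb pSmad1/5 (20.9%, all genes 13.9%). They gave 7 for molar Smad4 (16.3%, 6.81 to 30.7%, all genes 5.29%) and 14 for limb Smad4 (32.6%, 19.1 to 48.5%, all genes 17%), much as with the full lists. Within 10 kb limb Smad4 then reached 53.5% (37.7 to 68.8%), against 38.2% of all genes, an interval that includes that share. For the 33 genes with an annotated start, 7 had a molar pSmad1/5 summit within 1 kb of it (21.2%, all such genes 19.8%). A limb pSmad1/5 summit lay there at 4 (12.1%, all such genes 13.6%). Molar Smad4 reached 3 (9.09%, 1.92 to 24.3%, all such genes 5.21%) and limb Smad4 12 (36.4%, 20.4 to 54.9%, all such genes 20.1%).

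**Figure D1:**
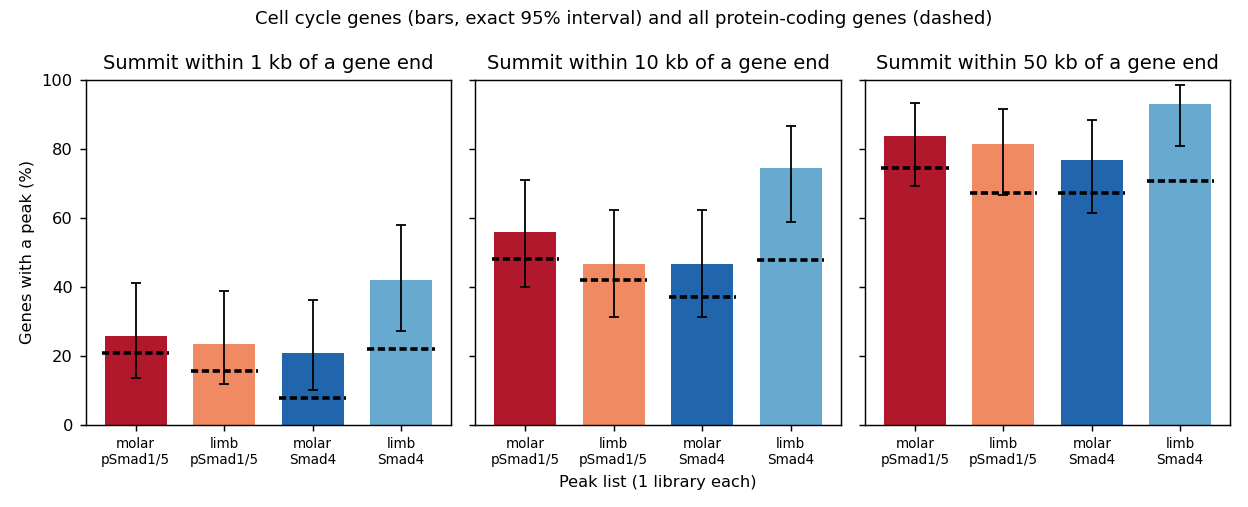
Share of the 43 cell cycle genes (bars, in percent) with a peak summit within 1, 10 or 50 kb of a gene end in each of the 4 peak lists, with exact 95% binomial intervals, and the share of all 21887 protein-coding genes (dashed lines). The limb Smad4 bars are 41.9%, 74.4% and 93.0%, each with its interval above the dashed line, which did not hold at any of these distances for scores of at least 4.

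The median distance from a member to its nearest summit was 5319 bp for molar pSmad1/5 and 13457 bp for limb pSmad1/5, against 11156 and 16932 bp over all genes. For molar Smad4 it was 12830 bp and for limb Smad4 1519 bp, against 19911 and 11909 bp over all genes. Members were slightly shorter than other genes, with a median length of 14697 bp against 17169 bp. Taken on the members' own chromosomes, the share of all genes with a limb Smad4 peak within 1 kb was 21.9%, so their placement on chromosomes moved the background little.

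**Figure D2:**
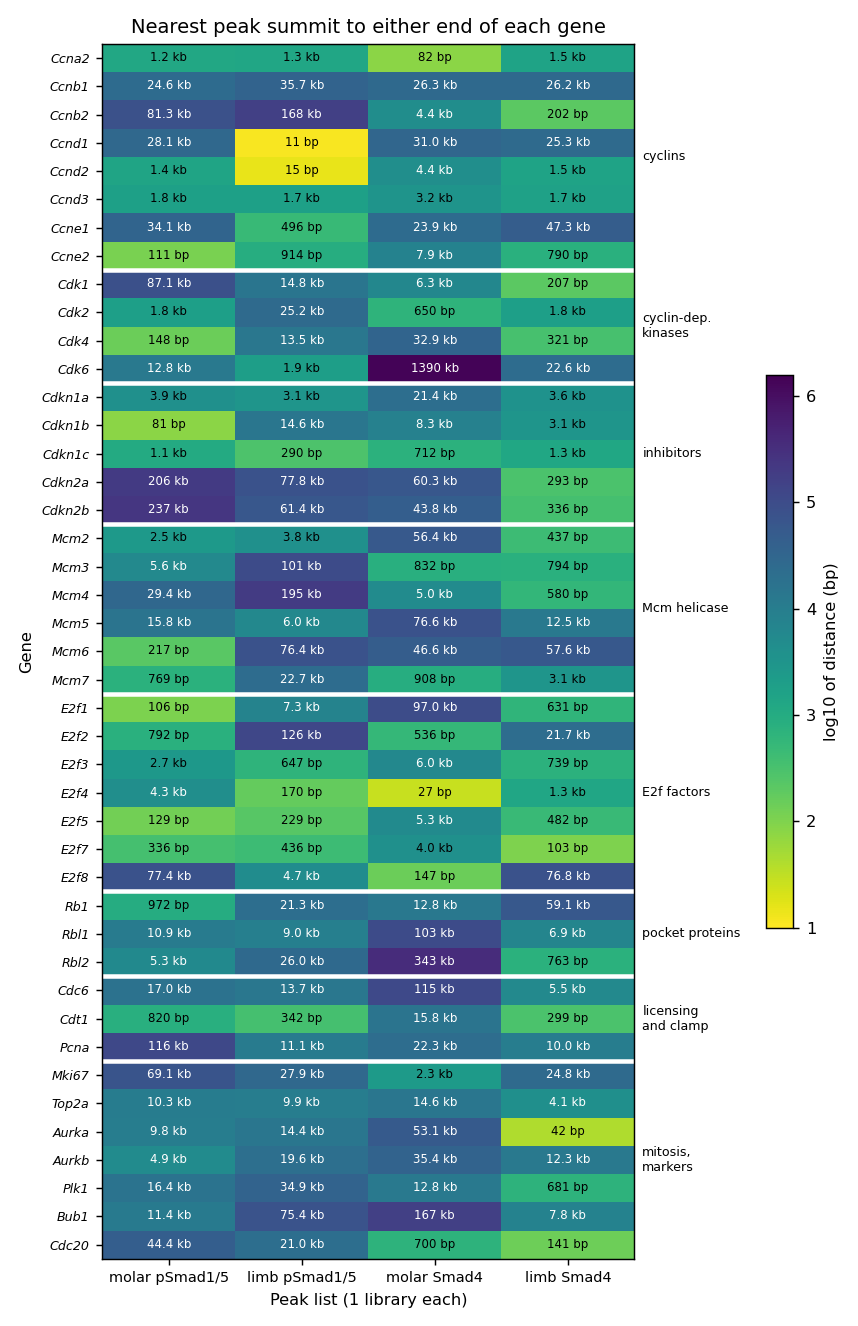
Distance (bp or kb, colour on a log10 scale) from the nearest peak summit to either end of each of the 43 genes (rows, by group) in each peak list (columns). The shortest are 11 bp and 15 bp for limb pSmad1/5 at Ccnd1 and Ccnd2, and the longest is molar Smad4 at Cdk6.

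In at least 1 list a peak lay within 1 kb of 31 of 43 members, a share of 72.1%, against 44.9% of all genes. In at least 2 lists the share was 30.2% of members, or 13 genes, against 16.8% of all genes. Summits within 1 kb made 57 gene and peak pairs, of which 28 lay at the start of the gene and 9 at its far end, and for 20 the strand was not known from the RefSeq windows. The summit lay inside the gene in 41 and outside in 16. Exonic and intronic positions were not told apart. Within 1 kb the member was the nearest protein-coding gene in 14 of 15 molar pSmad1/5 pairs, 11 of 12 limb pSmad1/5 pairs, 9 of 9 molar Smad4 pairs and 19 of 21 limb Smad4 pairs. Over the whole 50 kb the member was the nearest gene in 34.8%, 30.0%, 47.1% and 31.3% of pairs in the order molar pSmad1/5, limb pSmad1/5, molar Smad4 and limb Smad4.

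The pSmad1/5 lists of molar and limb marked a similar number of members. Within 1 kb these were mostly different genes, as was so over all genes. There, 7 members (16.3%) had a molar and no limb pSmad1/5 peak, 6 (14.0%) a limb and no molar peak, and 4 (9.3%) had both. Over all genes these classes held 15.7%, 10.4% and 5.05%, and 68.8% had neither, as did 26 members (60.5%). The interval of each member share includes the share of all genes. The genes with a molar pSmad1/5 peak alone were Cdk4, Cdkn1b, Mcm6, Mcm7, E2f1, E2f2 and Rb1. Those with a limb peak alone were the cyclins Ccnd1, Ccnd2 and Ccne1, the inhibitor Cdkn1c, and E2f3 and E2f4. The cyclin Ccne2, E2f5, E2f7 and the licensing factor Cdt1 had both. On chromosomes with the same lowest score, 7 of 32 members had a molar and 7 a limb pSmad1/5 summit within 1 kb, against 16.6% and 15.7% of the genes there. On the others 4 of 11 had a molar and 3 a limb one, against 30.8% and 14.8%. At 50 kb, 31 members had pSmad1/5 peaks of both tissues, 5 of molar alone (Mcm3, Mcm4, Mcm6, E2f2 and Bub1), 4 of limb alone (Cdk1, E2f8, Pcna and Mki67), and 3 of neither, against 59.1%, 15.3%, 8.21% and 17.4% of all genes.

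Smad4 peaks marked fewer members in molar than in limb. Within 1 kb, 7 members had a molar Smad4 peak alone, 16 a limb Smad4 peak alone and 2 both, namely Mcm3 and Cdc20, against 5.56%, 19.6% and 2.2% of all genes. Neither was found at 18 members and 72.6% of all genes. The molar minus limb difference was therefore -9 genes, and -1 with a score of at least 4. Over all genes molar Smad4 peaks were also the rarer, with 7.76% against 21.8%. On chromosomes where the Smad4 lists of both tissues stop at the same score, 7 of 28 members had a molar and 13 a limb Smad4 peak within 1 kb, against 10.4% and 20.8% of the genes there. On the chromosomes with different lowest scores, 2 of 15 had a molar and 5 a limb peak, against 2.72% and 23.7%.

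At 50 kb the Smad4 difference was -7 genes, with 3 members having a molar peak alone (Mcm6, E2f8 and Rb1) and 10 a limb peak alone, against 12.3% and 15.5% of all genes, while 30 had both (55%) and 0 neither (17.1%). All of these 10 but Cdkn2a and Mcm2 lie on chromosomes where the molar Smad4 list stops at 4: Cdk6, Mcm5, E2f1, Rbl1, Rbl2, Cdc6, Aurka and Bub1. The direction of the 50 kb difference was not stable: it was 2 with a score of at least 4 and 1 on chromosomes with the same lowest score. The pSmad1/5 difference of 1 gene at 50 kb also turned, to -5 with a score of at least 4 and to -2 on chromosomes with the same lowest score.

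**Figure D3:**
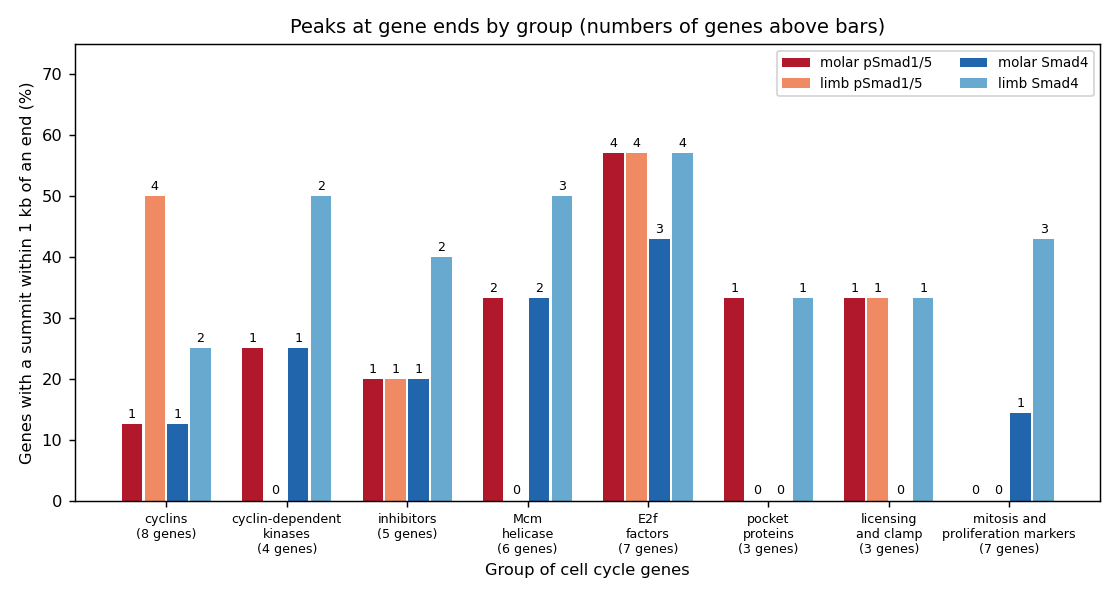
Share of the genes of each group (bars, in percent, with the number of genes above) that had a peak summit within 1 kb of a gene end, by peak list. Limb pSmad1/5 peaks lay at 4 of 8 cyclins and at 0 of 6 Mcm genes, and the E2f group held 4, 4, 3 and 4 genes in the order of the legend's lists.

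Among cyclins, peaks at gene ends were most frequent for limb pSmad1/5. Within 1 kb, 1 of 8 cyclins had a molar pSmad1/5 peak and 4 a limb pSmad1/5 peak, against 20.7% and 15.5% of all genes. A molar Smad4 peak lay at 1 and a limb Smad4 peak at 2, against 7.76% and 21.8%. The limb pSmad1/5 share, 50%, has an interval of 15.7 to 84.3%. Ccnd1, the D-type cyclin that links growth signals to the cell cycle, had its nearest summit at 28140 bp in molar pSmad1/5 and at 11 bp in limb pSmad1/5. Its Smad4 summits lay at 30987 bp in molar and 25285 bp in limb. The limb pSmad1/5 peak alone thus touched the gene end, at chr7:144939773-144939857 with a score of 4.06. Ccnd2, another D-type cyclin, had limb pSmad1/5 summits 15 bp outside and 232 bp inside its upper end, with scores of 4.13 and 3.11.

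The nearest molar pSmad1/5 summit at Ccnd2 lay at 1443 bp, but 11 molar peaks stood within 50 kb, against 3 in limb. Of those 11, a single one had a score above 4, of 4.08, and Ccnd2 lies on chromosome 6, where the molar list goes down to 2. Ccnd2 also held the strongest molar Smad4 peak near any member, at chr6:127120778-127120827, 4356 bp from the gene, with a score of 6.345. Ccnd3, the third D-type cyclin, had its nearest summits at 1793 bp and 1743 bp for molar and limb pSmad1/5 and at 3162 bp and 1678 bp for molar and limb Smad4. All 4 lists therefore came within 5 kb of Ccnd3 without reaching 1 kb.

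Ccne2, an E-type cyclin of the entry into DNA synthesis, had molar pSmad1/5 summits 111 and 472 bp inside its lower end, with scores of 4.405 and 3.40. Its limb pSmad1/5 summit lay at 914 bp and its limb Smad4 summit at 790 bp. That limb Smad4 peak, at chr4:11191195-11191320, had a score of 8.31, the highest near any member in any list. The nearest molar Smad4 summit was at 7909 bp. Ccne1, the other E-type cyclin, had a limb pSmad1/5 summit 496 bp inside its far end, and the nearest molar pSmad1/5, molar Smad4 and limb Smad4 summits lay at 34085, 23916 and 47294 bp.

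Ccna2, the A-type cyclin of DNA synthesis and mitosis, had a molar Smad4 summit 82 bp inside its upper end with a score of 4.70. This peak also lay within 1 kb of the neighbouring Bbs7. Its other nearest summits lay at 1183 bp for molar pSmad1/5, 1302 bp for limb pSmad1/5 and 1509 bp for limb Smad4, and the pSmad1/5 peaks of molar and limb overlapped by 89 bp inside the gene. The mitotic cyclin Ccnb2 had a limb Smad4 summit 202 bp inside its start and a molar Smad4 summit at 4418 bp, and the nearest pSmad1/5 summits were 81258 bp away in molar and 167846 bp in limb. Ccnb1, the other mitotic cyclin, had no summit within 10 kb in any list. Its nearest lay at 24586 and 35694 bp for molar and limb pSmad1/5 and at 26254 and 26162 bp for molar and limb Smad4.

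Each of the cyclin-dependent kinases showed a different set of peaks. Cdk1, the mitotic kinase, had a limb Smad4 summit 207 bp inside its start, no pSmad1/5 peak within 50 kb in molar and 1 in limb at 14819 bp. Cdk2, which acts with E- and A-type cyclins, had a molar Smad4 summit at 650 bp near its far end. A molar pSmad1/5 and a limb Smad4 peak overlapped by 63 bp there, at 1814 and 1829 bp from the gene. Cdk4, a partner of D-type cyclins, had a molar pSmad1/5 summit 148 bp inside its start and a limb Smad4 summit 321 bp inside its far end, which also lies 320 bp from an end of Tspan31. The highest-scoring molar pSmad1/5 peak near any member, with a score of 4.94, lay 18727 bp before the start of Cdk4. Cdk6, the other D-type cyclin partner, had its nearest summits at 12767 bp for molar pSmad1/5, 1936 bp for limb pSmad1/5 and 22590 bp for limb Smad4, and no molar Smad4 peak within 50 kb.

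The inhibitors comprise the Cip/Kip genes, which bind many cyclin and kinase pairs, and the Ink4 genes, which bind Cdk4 and Cdk6. Of the 5, 1 had a molar and 1 a limb pSmad1/5 summit within 1 kb, against 20.7% and 15.5% of all genes. A molar Smad4 summit lay at 1 and a limb Smad4 summit at 2, against 7.76% and 21.8%. With 5 genes these counts do not set the group apart. Cdkn1a (p21), a known target of p53 and of TGF-beta signalling, had 1 molar and 6 limb pSmad1/5 peaks and 2 molar and 8 limb Smad4 peaks within 50 kb. The nearest to an outer gene end lay at 3907 and 3150 bp for molar and limb pSmad1/5 and at 21378 and 3564 bp for molar and limb Smad4. Cdkn1a also has an annotated start inside the gene. After that start the closest summits lay at 774 bp for limb Smad4, 1117 bp for molar pSmad1/5 and 1293 bp for limb pSmad1/5. Inside Cdkn1a a limb pSmad1/5 and a limb Smad4 peak overlapped by 106 bp, at chr17:29095551-29095656. Cdkn1b (p27), whose promoter is shown above, had molar pSmad1/5 summits 81 bp before and 925 bp after its start, with scores of 2.59 and 2.35. Its nearest limb pSmad1/5 summit was at 14570 bp, and its nearest Smad4 summits were at 8348 bp in molar and 3144 bp in limb. Chromosome 6 holds molar pSmad1/5 peaks down to a score of 2, and these molar peaks lie below the lowest limb score of 3.

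Cdkn1c (p57), an imprinted inhibitor, had peaks of all 4 lists within 2 kb. The nearest summits were at 1064 bp for molar and 290 bp for limb pSmad1/5, and at 712 bp for molar and 1279 bp for limb Smad4. About 12 kb from Cdkn1c a molar and a limb pSmad1/5 peak overlapped by 42 bp, at chr7:143445948-143445989. Both were high for members, with scores of 4.88 in molar and 5.11 in limb. Cdkn2a and Cdkn2b, the neighbouring Ink4 genes, had no pSmad1/5 peak of either tissue within 50 kb. Cdkn2b had a molar Smad4 summit at 43846 bp. In limb Smad4 the locus held 4 peaks, counted for both genes. Summits lay 293 and 884 bp outside the outermost of the 2 annotated starts of Cdkn2a, and 336 bp inside the start of Cdkn2b. Their scores were 3.179, 3.011 and 3.997, and limb Smad4 was thus the only one of the 4 lists with a peak within 50 kb of Cdkn2a.

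The Mcm genes, which encode the 6 subunits of the replicative helicase, had molar pSmad1/5 peaks within 50 kb in 6 of 6 cases and limb pSmad1/5 peaks in 3, against 74.4% and 67.3% of all genes. With 6 genes the intervals are wide, 54.1 to 100% in molar and 11.8 to 88.2% in limb, and both include the share of all genes. Within 10 kb the counts were 4 and 2, against 48.1% and 41.9% of all genes. Within 1 kb they were 2 and 0, against 20.7% and 15.5%. Smad4 peaks lay within 50 kb of 4 Mcm genes in molar and 5 in limb, against 67.3% and 70.5% of all genes. Within 1 kb they lay at 2 and 3, against 7.76% and 21.8%. Mcm3, Mcm4 and Mcm6 had a molar and no limb pSmad1/5 peak within 50 kb, and all 3 lie on chromosomes 1 and 16, where the molar list goes down to 2 and the limb list to 3. With equal numbers of top-scoring peaks per chromosome the counts within 50 kb were 6 in molar and 3 in limb, against 66.9% and 64.6% of all genes. With a score of at least 4 they were 2 and 3, against 27.1% and 33.7%.

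Mcm2 had 11 molar and 6 limb pSmad1/5 peaks, no molar Smad4 peak and 11 limb Smad4 peaks within 50 kb. All 11 molar pSmad1/5 peaks there scored under 3, below the lowest limb score on chromosome 6. Its nearest limb Smad4 summit lay 437 bp inside the far end with a score of 3.04. A cluster lay 3633 to 3840 bp before the start of Mcm2, where a molar pSmad1/5 peak overlapped a limb pSmad1/5 peak at chr6:88902450-88902581 and a limb Smad4 peak by 74 bp. The scores were 2.05, 3.10 and 5.75 for molar pSmad1/5, limb pSmad1/5 and limb Smad4. Mcm3 had Smad4 summits of both tissues within 1 kb, but at opposite ends: the molar one 832 bp inside the start and the limb one 794 bp inside the far end. Mcm4 had a limb Smad4 summit at 580 bp, which also lies 536 bp from an end of Prkdc. Mcm5 had no summit within 1 kb, and its nearest were at 15751 bp for molar pSmad1/5, 5976 bp for limb pSmad1/5 and 12532 bp for limb Smad4. Mcm6 had a molar pSmad1/5 summit 217 bp beyond its far end with a score of 2.26. Besides the molar pSmad1/5 peak shown above, Mcm7 had a molar Smad4 summit 908 bp outside its upper end with a score of 5.02, which also lies 998 bp from an end of Ap4m1, while its nearest limb summits lay at 22745 bp for pSmad1/5 and 3146 bp for Smad4.

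Of the factors that load the helicase, Cdt1 had peaks at its start in 3 lists. The molar pSmad1/5 summit lay 820 bp before the start with a score of 4.37, and the limb pSmad1/5 summit 342 bp after it with a score of 4.49. The limb Smad4 summit lay 299 bp after the start with a score of 3.72, next to the limb pSmad1/5 peak but without overlap. A site about 16.5 kb before Cdt1 held overlapping limb pSmad1/5 and limb Smad4 peaks at chr8:122551502-122551558. Cdc6, its partner in loading, had no summit within 1 kb, 1 molar and 8 limb pSmad1/5 peaks, and 0 molar and 8 limb Smad4 peaks within 50 kb. Pcna, the sliding clamp of the DNA polymerases, had no molar pSmad1/5 peak within 50 kb, 5 limb pSmad1/5 peaks, and 1 molar and 2 limb Smad4 peaks, none within 1 kb.

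**Figure D4:**
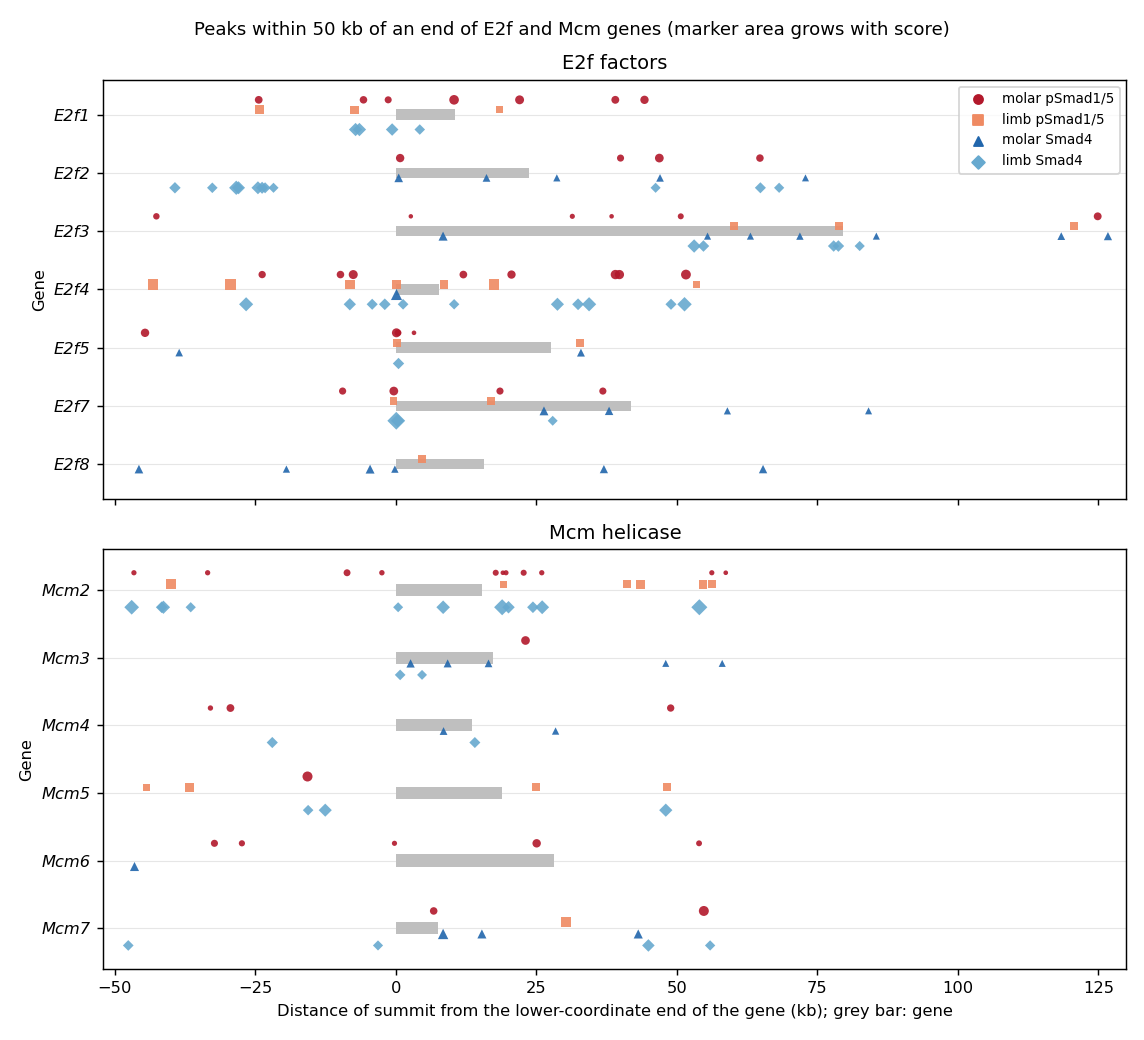
Positions of peak summits (in kb from the lower-coordinate end of the gene) within 50 kb of an end of the 7 E2f genes and the 6 Mcm genes, coloured by peak list, with marker area growing with the score and grey bars for the genes. Peaks of 3 lists gather at one end of E2f5 and of E2f7, while Mcm3, Mcm4 and Mcm6 carry no limb pSmad1/5 peak.

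Every one of the 7 E2f genes had a summit within 1 kb of an end in at least 1 list, against 44.9% of all genes. Within 1 kb there were 4 for molar pSmad1/5 (E2f1, E2f2, E2f5 and E2f7), 4 for limb pSmad1/5 (E2f3, E2f4, E2f5 and E2f7), 3 for molar Smad4 (E2f2, E2f4 and E2f8) and 4 for limb Smad4 (E2f1, E2f3, E2f5 and E2f7). The shares of all genes were 20.7%, 15.5%, 7.76% and 21.8% in that order. The molar and limb Smad4 sets had no gene in common, and only 2.2% of all genes had a Smad4 summit of both tissues within 1 kb. With 7 genes the intervals are wide, for example 18.4 to 90.1% for molar pSmad1/5, and whether the group differs from other genes was not tested.

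E2f7, an atypical repressor of the family, had a molar pSmad1/5 summit 336 bp and a limb pSmad1/5 summit 436 bp before its start, with scores of 3.95 and 3.23. Limb Smad4 summits followed 103 and 335 bp after the start, with scores of 6.76 and 4.265. The nearest molar Smad4 summit lay at 3981 bp. E2f5, which acts mainly as a repressor with pocket proteins, had molar pSmad1/5 summits 129, 326 and 478 bp inside its lower end, a limb pSmad1/5 summit at 229 bp and a limb Smad4 summit at 482 bp. The limb Smad4 peak overlapped 2 of the molar pSmad1/5 peaks, by 50 and 103 bp, at chr3:14578883-14579089, and no limb pSmad1/5 peak. Of the molar peaks the nearest scored 4.09 and the other two 2.63 and 2.64.

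E2f1, the activator best known for driving entry into DNA synthesis, had a molar pSmad1/5 summit 106 bp inside its upper end with a score of 4.49, and a limb Smad4 summit 631 bp beyond its far end with a score of 4.01, which also lies 637 bp from an end of Necab3. Its nearest limb pSmad1/5 and molar Smad4 summits lay at 7337 and 96966 bp. E2f2, another activator, had molar pSmad1/5 and molar Smad4 summits 792 and 536 bp inside its start with scores of 3.73 and 3.88. E2f2 and Mcm7 were the members with both antibodies within 1 kb in molar, or 4.65%, against 2.33% of all genes. The nearest limb summits at E2f2 were at 126133 bp for pSmad1/5 and 21738 bp for Smad4. E2f3, the third activator, showed the opposite tissue: limb pSmad1/5 and limb Smad4 summits lay 647 and 739 bp from its end, and the nearest molar summits at 2692 bp for pSmad1/5 and 6019 bp for Smad4.

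E2f4, the main repressor of resting cells, had a molar Smad4 summit 27 bp inside its lower end with a score of 5.52 and a limb pSmad1/5 summit 170 bp inside it with a score of 3.83. Both peaks also lay within 1 kb of Exoc3l. A second limb pSmad1/5 summit lay 891 bp beyond the upper end and 800 bp from an end of Elmo3, and 8140 bp from the lower end a limb pSmad1/5 and a limb Smad4 peak overlapped by 53 bp. E2f8, the other atypical factor, had a molar Smad4 summit 147 bp beyond its far end and a limb pSmad1/5 summit at 4724 bp. No molar pSmad1/5 and no limb Smad4 peak lay within 50 kb of E2f8.

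Of the 3 pocket proteins, which bind E2f factors, 1 had a molar and 0 a limb pSmad1/5 summit within 1 kb, against 20.7% and 15.5% of all genes. Molar Smad4 reached 0 and limb Smad4 1, against 7.76% and 21.8%. Rb1, the retinoblastoma gene, had a molar pSmad1/5 summit 972 bp inside its upper end with a score of 3.10, and its nearest limb pSmad1/5, molar Smad4 and limb Smad4 summits lay at 21304, 12830 and 59129 bp. Rbl2 (p130) had a limb Smad4 summit 763 bp before its start and molar and limb pSmad1/5 summits at 5319 and 26030 bp. Rbl1 (p107) had limb summits at 9018 bp for pSmad1/5 and 6936 bp for Smad4, and a molar pSmad1/5 summit at 10880 bp. Neither Rbl1 nor Rbl2 had a molar Smad4 peak within 50 kb, and both lie on chromosomes where that list stops at 4.

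No gene of the mitosis and proliferation group had a pSmad1/5 summit of either tissue within 1 kb. With 7 genes the interval is 0 to 41%, which includes the 20.7% and 15.5% of all genes for molar and limb. Within 10 kb molar pSmad1/5 reached 2 of 7 (Aurka and Aurkb) and limb pSmad1/5 1 (Top2a), against 48.1% and 41.9% of all genes. Smad4 summits lay within 1 kb of 1 of them in molar and 3 in limb, against 7.76% and 21.8% of all genes. Aurka, a spindle kinase, had a limb Smad4 summit 42 bp outside its upper end, which also lies 283 bp from an end of Cstf1. The mitotic kinase Plk1 had a limb Smad4 summit 681 bp after its start. Cdc20, an activator of the anaphase-promoting complex, had limb Smad4 summits 141 bp inside its start and 590 bp beyond its far end and a molar Smad4 summit 700 bp inside its start.

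The proliferation marker Mki67 had no molar pSmad1/5 peak within 50 kb, 2 limb pSmad1/5 peaks, and 11 molar and 4 limb Smad4 peaks, with the nearest molar Smad4 summit at 2316 bp. Top2a, the DNA topoisomerase of dividing cells, had 2 molar and 12 limb pSmad1/5 peaks and 1 molar and 7 limb Smad4 peaks. Top2a and Cdc6 lie on chromosome 11, and 5 limb pSmad1/5 and 3 limb Smad4 peaks within 50 kb of both were counted for both. These peaks lay 19970 to 47670 bp from Cdc6 and 21335 to 49035 bp from Top2a, so they are not close to either gene. The kinase Aurkb had its highest limb pSmad1/5 score, 5.80, at 46795 bp, the highest near any member in that list. Bub1, a kinase of the spindle checkpoint, had 2 molar and no limb pSmad1/5 peaks, and no molar and 1 limb Smad4 peak.

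Overlap of peaks between lists was rare near members, as near other genes. Counting overlap from 1 bp, 11 of the 43 members had a site shared by 2 lists within 50 kb. This count of genes has no value over all genes beside it, so only shares of peaks are compared below. Between molar and limb pSmad1/5, 3 of 138 molar peaks (2.17%) and 3 of 115 limb peaks (2.61%) overlapped, at Ccna2, Cdkn1c and Mcm2, against 1.5% and 2.03% of the peaks near any protein-coding gene. Between molar pSmad1/5 and limb Smad4, 5 of 138 (3.62%) and 4 of 156 (2.56%) overlapped, at Ccna2, Cdk2, Mcm2 and E2f5, against 2.61% and 2.67%. Within limb, 6 of 115 pSmad1/5 peaks (5.22%) and 5 of 156 Smad4 peaks (3.21%) overlapped, at Ccnd3, Cdkn1a, E2f4, Cdc6, Cdt1 and Top2a, against 5.67% and 4.32%. These shares are close to those of other genes. Within molar 0 of 138 pSmad1/5 peaks overlapped a Smad4 peak, which allows a share of up to 2.17%, against 0.654% near any gene. Molar and limb Smad4 had 0 of 104 molar peaks in common, which allows up to 2.88%, against 0.567%.

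Sites close together, overlapping or not, were more frequent. Counting summits within 500 bp of each other, 24 of 43 members had a site of 2 lists, again without a count over all genes to set it against. Limb pSmad1/5 and limb Smad4 came this close at 17 members, with 17.4% of the limb pSmad1/5 and 12.8% of the limb Smad4 peaks, against 15.1% and 12.0% near any gene. For molar and limb pSmad1/5 the shares were 11.6% and 10.4%, against 6.47% and 8.51%, at 11 members that include Ccne2, E2f5 and E2f7.

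**Figure D5:**
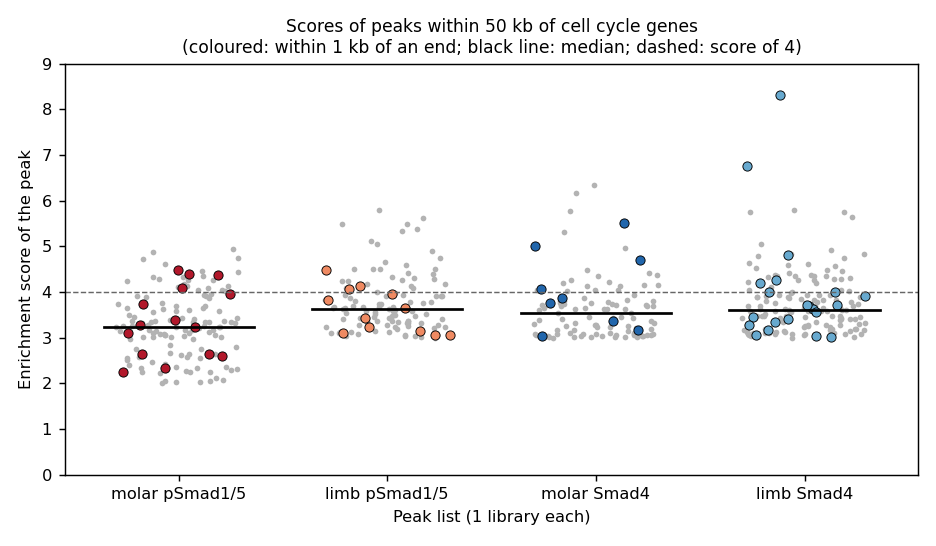
Enrichment score of every peak within 50 kb of a cell cycle gene (points), by peak list, with peaks within 1 kb of a gene end in colour, the median as a black line and a dashed line at a score of 4. Most points lie below the dashed line, and the 2 highest coloured points are the limb Smad4 peaks at Ccne2 (8.31) and E2f7 (6.76).

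Most peaks near members scored low. The median score within 50 kb was 3.24 for molar pSmad1/5, 3.63 for limb pSmad1/5, 3.54 for molar Smad4 and 3.603 for limb Smad4, counting each peak once, against 3.075, 3.48, 3.41 and 3.563 for the peaks near any protein-coding gene. Scores of at least 4 were held by 18.8%, 27.5%, 23.1% and 25.8% of the gene and peak pairs in that order. Further high-scoring peaks were a molar Smad4 peak 35432 bp from Aurkb (score 6.18) and a limb Smad4 peak 43389 bp from Ccna2 (5.81) that overlapped a molar pSmad1/5 peak (3.88). Others were limb pSmad1/5 peaks 29393 bp from E2f4 (5.63) and 35858 bp from Cdc6 and 33147 bp from Top2a (5.50). Molar Smad4 peaks 14622 bp from Top2a (5.77) and 15839 bp from Cdt1 (5.32) and molar pSmad1/5 peaks 15751 bp from Mcm5 (4.755), 47291 bp from Mcm7 (4.72) and 43929 bp from E2f4 (4.62) completed the 5 highest-scoring members of those lists.

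A wider list of 91 other cell cycle and replication genes, such as subunits of the origin recognition complex, DNA polymerases and mitotic kinesins, was set beside the members. Within 1 kb, molar pSmad1/5 peaks lay at 24 of 91 (26.4%, 17.7 to 36.7%, all genes 20.7%) and limb pSmad1/5 peaks at 11 (12.1%, 6.19 to 20.6%, all genes 15.5%). Molar Smad4 peaks lay at 10 (11.0%, 5.40 to 19.3%, all genes 7.76%) and limb Smad4 peaks at 19 (20.9%, 13.1 to 30.7%, all genes 21.8%), so all 4 intervals include the share of all genes. Within 50 kb, molar pSmad1/5 peaks lay near 91.2% of the wider list (83.4 to 96.1%, all genes 74.4%) and limb pSmad1/5 peaks near 82.4% (73 to 89.6%, all genes 67.3%). Molar Smad4 peaks lay near 72.5% (62.2 to 81.4%, all genes 67.3%) and limb Smad4 peaks near 85.7% (76.8 to 92.2%, all genes 70.5%). At that distance the intervals of all lists but molar Smad4 lay above the share of all genes.

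Of the 91, 12 had a summit within 1 kb in at least 2 lists, a share of 13.2% (7.0 to 21.9%). The interval includes the 16.8% of all genes. Fzr1, an activator of the anaphase-promoting complex, had one in all 4, at 594 and 130 bp for molar and limb pSmad1/5 and 702 and 344 bp for molar and limb Smad4. The phosphatase Cdc25a had 3 of the 4, at 591 and 903 bp for molar and limb pSmad1/5 and 719 bp for molar Smad4, and Ccnh, the cyclin of the Cdk-activating kinase, had molar pSmad1/5, molar Smad4 and limb Smad4 summits at 240, 427 and 219 bp. Cdc7, Pole, Foxm1 and Mcm9 had pSmad1/5 summits of both tissues, Cks2 and Pkmyt1 Smad4 summits of both tissues, and Lin9, Dbf4 and Gmnn other pairs.

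Promoter windows of members were also searched for short motifs on both strands. GGCGCC occurred in 12 of 39 member windows (30.8%), against 11.9% of all 32851 windows, and GGAGCC in 15 (38.5%), against 30.8%. The Smad element CAGAC occurred in 15 (38.5%), against 49.6%. The E2f element TTGGCGC occurred in 12 (30.8%), against 2.45%. A second E2f element, TTCCCGC, occurred in 9 (23.1%), against 4.6%, and the element TTCGCGC in 5 (12.8%), against 1.59%. At least 1 of the 3 E2f elements was held by 17 windows (43.6%, 27.8 to 60.4%), against 8.07%. TTGGCGC shares letters with GGCGCC and with CCAAT, and the matches overlapped in 4 and 3 member windows. TTTGAA, the cell cycle homology region, occurred in 13 (33.3%), against 17.9%, and CCAAT in 25 (64.1%), against 37.4%. Windows were not matched for base composition. A match in these windows is a run of letters and was not tied to a peak except in the 4 windows printed above.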

How the data were processed

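Chromatin from 1 library per tissue and antibody was fixed, sonicated, immunoprecipitated and sequenced, with 2 input libraries, per the labels' protocols. Peak calling by the authors used BCP's transcription factor mode, per the labels, and mm10 was the build; the submitters' processing notes name bcl2fastq, Bowtie2, SAMtools, bedtools and deepTools without versions, and other steps are not given in the sources used here. The deposited lists give each peak's span, summit, enrichment score and p-value. The deposited score was used to describe, rank and filter peaks within a list, and the deposited p-values were not used. How far alignment, duplicate removal and the caller's settings moved the peaks is unknown, as is read depth.

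Summits were assigned to every protein-coding gene (RefSeq, GRCm38.p6) by distance to its nearer end. Ends were taken without strand, and 33 of 43 members had a strand through RefSeq promoter entries. Intervals of shares are exact (Clopper-Pearson, 95%). Limits for a count of 0 take 3 counts. Each library is its own group, so no test was run. Genes are named if they had a summit within 1 kb, a peak of an antibody in a single tissue within 50 kb, no peak in at least 3 lists, 1 of the 5 highest-scoring peaks of a list, or a shared site. Of the wider list those with summits within 1 kb in at least 2 lists are named. Ccnb1, which is outside these rules, is named to account for all members. The members and lists were chosen with earlier results of these data known. Alternatives were distances of 1, 10 and 50 kb, a minimum score of 4, equal numbers of top peaks per chromosome, chromosomes with the same lowest score, the annotated start alone and summits within 500 bp. The distance search was tested on simulated data. It ran in Python 3.11.15 with pandas 2.3.3 and numpy 2.4.6, intervals came from scipy 1.17.1 and figures from matplotlib 3.10.9.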

Additional observations from a re-analysis of the deposited data

How the results depend on the processing

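Counts of members with a peak moved with the choice of distance and of score, and the differences between tissues are the least settled values. Of the values recomputed under an alternative, 39 were classed as the same, 24 as moved and 4 as changed in sign. These classes compare counts and not shares. A fall from 36 to 24 members, for molar pSmad1/5 at 10 kb in place of 50 kb, was still classed as the same. At 10 kb in place of 50 kb, 20 members had a limb pSmad1/5 and 20 a molar Smad4 peak. With a score of at least 4, 17 members had a molar pSmad1/5, 22 a limb pSmad1/5, 20 a molar Smad4 and 18 a limb Smad4 peak within 50 kb, and 4, 3, 4 and 5 within 1 kb in the same order. On chromosomes with the same lowest score, where fewer members were counted, 25 of 28 had a limb Smad4 peak within 50 kb (genes there 68.2%). There, 7 of 32 had a molar pSmad1/5 peak within 1 kb (genes there 16.6%). Only 33 members have an annotated start. Of these, 7 had a molar pSmad1/5, 4 a limb pSmad1/5 and 3 a molar Smad4 peak within 1 kb of it. The shares of all such genes were 19.8%, 13.6% and 5.21%. By either end, the same 33 had 8, 4 and 6, against 20.7%, 15.2% and 7.67% of all such genes. The molar minus limb difference at 50 kb, 1 gene for pSmad1/5, was 4 at 10 kb, -5 with a score of at least 4, 2 with equal numbers of peaks and -2 on chromosomes with the same lowest score. For Smad4 it was -7, and -12, 2, -4 and 1 under the same alternatives. Within 1 kb the pSmad1/5 difference of 1 was 0 with equal numbers of peaks and 0 on chromosomes with the same lowest score. With the start alone it was 3, counted over the 33 genes with a start. By either end, 8 of those 33 had a molar and 4 a limb pSmad1/5 peak, so 1 and 3 do not cover the same genes. The Smad4 difference of -9 within 1 kb was -1 with a score of at least 4. Members with a shared site numbered 24 with summits within 500 bp in place of 11. The cause was not tested. No paired analysis was possible because each tissue and antibody has 1 library. Depth is unknown, so no missing peak can be told apart from too few reads, and no value has a replicate.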
